A study of Mus musculus with 16 samples.

Results

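Itpr1, Pcp2, Pcp4, Slc1a6 and Shh are genes reported to need the nuclear receptor RORα in Purkinje cells of the cerebellum, and they were followed here in the thalamus and cortex of staggerer mice. A gene counted as measured where the array platform's annotation gave its symbol to a probe. This held for 4 of the 5 genes, with 1 probe each of the 24107 probes on the array, and Pcp4 was not analysed here. The probes were designed on the RefSeq transcripts NM_010585 for Itpr1, NM_008790 for Pcp2, NM_009200 for Slc1a6 and NM_009170 for Shh.

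The study put RNA of staggerer mice, in which part of Rora, encoding RORα, is deleted, against RNA of control mice (genotype labels "Stagerrer mutant" and "control") on 16 microarrays, with 1 RNA in the dye Cy3 and the other in Cy5. All mice were of the C57BL/6 strain and were taken at postnatal days 5 to 6, when axons of the ventrobasal nucleus of the thalamus (VB), the relay of whisker touch, form their pattern within layer 4 of the cortical area for touch. Both RNAs of an array came from the same numbered litter, and each of 4 litters was hybridized on 2 arrays for VB and 2 for somatosensory cortex with the dyes swapped. Whether animals of a litter were pooled is not given in the sources used here, the deletion is in all cells, and the labels do not say whether controls were wild type or carriers. VB RNA was amplified by PCR before labelling and cortex RNA was not, so tissue and labelling method cannot be told apart.

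RORα is a transcription factor that binds DNA mostly as a monomer, at an A/T-rich stretch followed by the core AGGTCA, and raises transcription of its target genes. In the cerebellum, Purkinje cells without it stay immature, with low levels of the genes followed here. Itpr1 encodes the inositol trisphosphate receptor, a channel that lets calcium out of the endoplasmic reticulum. Pcp2 encodes a small regulator of Gi and Go proteins with a GoLoco motif. Pcp4 encodes a small partner of calmodulin, the calcium sensor. Slc1a6 encodes EAAT4, a glutamate transporter of Purkinje cell spines. Shh is the secreted ligand by which Purkinje cells keep precursors of granule cells dividing. RORα is also made in sensory nuclei of the thalamus and in layer 4 of the cortex, whereas Pcp2 and Slc1a6 are best known from the cerebellum.

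On the mouse assembly GRCm38.p6, Itpr1 lies on chromosome 6 (108213083 to 108551116), Pcp2 on chromosome 8 (3623369 to 3625547), Slc1a6 on chromosome 10 (78780086 to 78814825) and Shh on chromosome 5 (28456840 to 28467101). RefSeq promoter windows, here the 250 bases before a transcript start, were at hand for Pcp2 (4 starts) and Slc1a6 (1 start) among the measured genes. They were searched on both strands for the core AGGTCA, which 14.0% of all 32851 windows of mouse genes hold, and for the longer RORα response element (RORE) with its A/T-rich part, which 0.332% hold and which contains the core where its sixth base from the end is A. The Pcp2 sequences are shown because they carry such letters near starts of the gene. The window before the most upstream start (chr8:3625548-3625797, minus strand) is given with the core in capitals, at 12 to 7 bases before the start. The second stretch (chr8:3625314-3625384, minus strand) lies before the third start and has a match to the RORE in capitals, read on the other strand, at 72 to 62 bases before that start.
Pcp2 upstream window: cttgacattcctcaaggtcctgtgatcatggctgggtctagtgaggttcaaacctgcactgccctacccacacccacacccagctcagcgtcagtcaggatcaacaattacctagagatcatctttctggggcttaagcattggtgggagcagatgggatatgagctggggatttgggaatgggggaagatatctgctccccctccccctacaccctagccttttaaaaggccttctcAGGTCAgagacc
Pcp2 stretch before the third start: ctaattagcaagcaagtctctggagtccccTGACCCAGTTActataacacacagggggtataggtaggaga
The window before the second start overlaps the first and holds the same core, at 87 to 82 bases before that start. The core was also present before the fourth start of Pcp2, and neither motif was in the Slc1a6 window. A match of letters describes the sequence and is no measured binding site.

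The deposited values are log ratios between the dyes, treated here as log2, a base the authors do not state. The labels do not say which RNA is the numerator, nor whether the columns of swapped arrays were turned to run 1 way. Across all probes, VB arrays of the same dye assignment correlated with r of 0.345 to 0.597 and VB arrays of opposite assignment with r of -0.531 to -0.274, against 0.111 to 0.278 and -0.241 to -0.034 in cortex. The direction of the columns is not settled by these, and each gene is given by array and under 2 readings of the columns. As deposited, the columns are taken to run 1 way already, and the main test rests on this. That choice was made because an earlier look at these same data leaned, weakly, that way. If the columns were not turned, averaging a swapped pair would cancel a genotype effect, and the main test could not show one. Read as Cy5 over Cy3, the sign was turned on arrays with mutant RNA in Cy3. If the columns already ran 1 way, this turn would cancel a genotype effect and keep a difference between the dyes. A gene that passed under this reading would then show no genotype effect. As deposited, it is not known whether positive means higher in mutant or in control. Under the Cy5 over Cy3 reading positive would mean higher in mutant, but the labels do not state that Cy5 is the numerator. So no statement is made on which genotype had more of a transcript. The verb passed is used of a mean that differed from 0 at an adjusted p under 0.05.

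Ratios hold no level, so neither the amount of each transcript nor the tissue's own markers could be checked, and signal over background is unknown. The number of arrays limits the precision. Each array held 17711 to 22580 values. In each tissue a gene was tested on litter means of the swapped pair where at least 3 litters had both arrays, with limma and a Benjamini-Hochberg adjustment over all features. Since each sample is bulk tissue, fewer cells of a type and less RNA per cell cannot be told apart. Among the marker lists of astrocytes, oligodendrocytes, microglia and vascular cells, the astrocyte gene Gja1 passed as deposited in both tissues, at a log2 ratio of -0.57 in VB (limma adjusted p = 0.00868) and -0.93 in cortex (limma adjusted p = 0.0174), and no other gene of those lists did. Gja1 had 0.41 in VB read as Cy5 over Cy3 and -0.22 in cortex likewise. Of the thalamus and cortex marker lists, Calb2 (-0.41) passed in VB as deposited and 0 genes passed in cortex.

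As deposited, 0 of the 4 measured genes passed in VB, where 0.311% of 16066 features did, and 3 of the 4 had an unadjusted p under 0.05, against 10.2% of all features. In cortex 0 of the 4 passed as well, where 0.0605% of 16521 features did, and 0 of the 4 had an unadjusted p under 0.05 by limma, against 7.90% of all. Read as Cy5 over Cy3, Itpr1 passed in VB, where 17.3% of all features did, and 0 of the 4 passed in cortex (0 at an unadjusted p under 0.05), where 1.53% did. On arrays of a single dye assignment in cortex 0 of the 4 passed by limma either, where 0.497% of features did with mutant RNA in Cy5 and 0.741% with mutant RNA in Cy3. The means of the dye assignments had opposite signs for 2 of the 4 genes in VB, as for 67.8% of features there, and for 3 of the 4 in cortex, as for 53.5%. Their arrays did not overlap for 2 of the 4 in VB (27.2% of features) and for 0 of the 4 in cortex (9.23%).

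**Figure D1:**
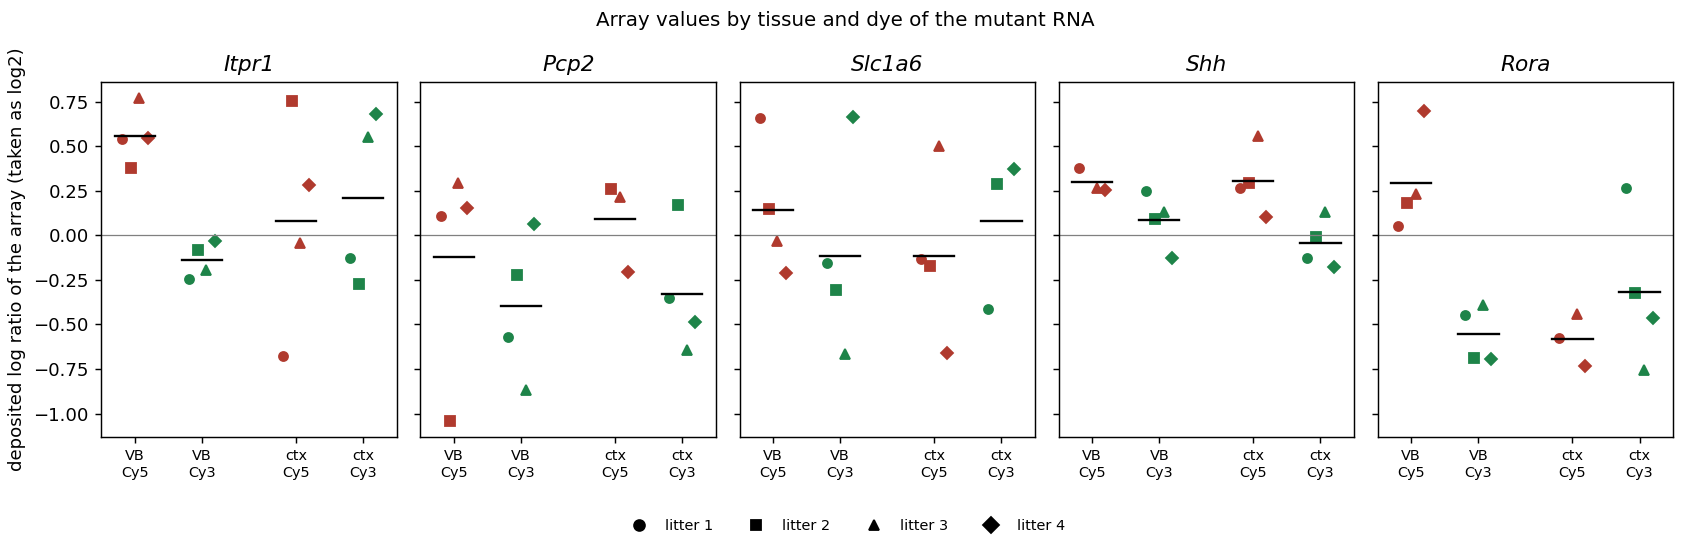
Deposited log ratio (vertical axis, taken as log2) of each array for the 4 measured genes and for Rora, by tissue (VB or cortex, ctx) and by the dye that labelled the mutant RNA. Marker shapes are litters 1 to 4 and black lines are means of the arrays. In VB the Itpr1 arrays with mutant RNA in Cy5 (0.38 to 0.77) lie above those with mutant RNA in Cy3 (-0.24 to -0.03), as do those of Rora.

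Itpr1, the calcium release channel, had the smallest SD between litters of the 4 genes in VB as deposited. The VB arrays of litters 1 to 4 with mutant RNA in Cy5 read 0.54, 0.38, 0.77 and 0.54. Those with mutant RNA in Cy3 read -0.24, -0.08, -0.20 and -0.03. All arrays of the first kind were positive and all of the second negative, without overlap. Such a lack of overlap was found in 27.2% of VB features. The means were 0.56 ± 0.16 (SD, n = 4 arrays) and -0.14 ± 0.10 (n = 4).

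As deposited, the litter means of Itpr1 in VB were 0.15, 0.15, 0.29 and 0.26, all positive. Their mean was 0.21 ± 0.07 (SD, n = 4 litters; 1.16-fold; 95% interval 0.066 to 0.35), with a limma adjusted p of 0.305 that did not pass. Under the Cy5 over Cy3 reading the litters gave 0.39, 0.23, 0.48 and 0.29. This mean was 0.35 ± 0.11 (SD, n = 4; 1.27-fold; 95% interval 0.19 to 0.50) and passed at a limma adjusted p of 0.00626. The call stood without each litter in turn, with ratios of 0.30 to 0.39. Without litters 1 to 4, 1056 of 9872, 1640 of 10857, 1280 of 10027 and 1609 of 11392 features passed. The arrays with mutant RNA in Cy5 alone also passed, at 0.56 (limma adjusted p = 0.00491), where 6.48% of features did, and those with mutant RNA in Cy3 alone did not, at -0.14 (0.367), where 8.02% did. Itpr1 was positive in all 4 litters under both readings, but these are made from the same arrays, so the shared sign is no independent support. The part of the dyes in the difference between its assignments was not tested. Of the marker lists, 6 genes also passed in VB under this reading (the astrocyte gene Gja1, the oligodendrocyte genes Olig1 and Sox10, the cortex gene Neurod6 and the thalamus genes Calb2 and Olig3), of 32 tested, 18.8% against 17.3% of all features, and their part in the result was not tested. A ratio at least this large in size was seen in 6.86% of VB features as deposited and in 8.58% under the other reading.

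In cortex Itpr1 varied more. With mutant RNA in Cy5 its arrays read -0.68, 0.75, -0.04 and 0.28 in litters 1 to 4, and with mutant RNA in Cy3 they read -0.13, -0.27, 0.55 and 0.68. The dye assignments overlapped, and the litter means ran from -0.40 in litter 1 to 0.48 in litter 4. As deposited, the mean was 0.14 ± 0.38 (SD, n = 4; 95% interval -0.15 to 0.44; limma adjusted p = 0.868). It was 0.32 without litter 1 (limma adjusted p = 0.679) and 0.03 without litter 4. The SD between litters was as large in 10.1% of cortex features, against 83.2% of VB features for Itpr1 in VB. Turning the swapped arrays gave a cortex mean of -0.06 ± 0.39 (SD, n = 4; limma adjusted p = 0.890), with litter 2 at 0.51 and the others from -0.30 to -0.20.

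Pcp2, the GoLoco protein of Purkinje cells, was the 1 gene of the 4 with a negative ratio in VB as deposited. Its VB arrays with mutant RNA in Cy5 read 0.11, -1.04, 0.30 and 0.15 in litters 1 to 4. Those with mutant RNA in Cy3 read -0.57, -0.22, -0.87 and 0.06. Litter 2 stood apart among the first and the arrays overlapped. As deposited, litters gave -0.23, -0.63, -0.29 and 0.11, with a mean of -0.26 ± 0.30 (SD, n = 4; 1.20-fold; 95% interval -0.49 to -0.034), negative in 3 of 4 litters (limma adjusted p = 0.433). Without litter 2 this mean was -0.14, and without litter 4 it was -0.38 (limma adjusted p = 0.108). The mean turned to 0.14 ± 0.43 when read as Cy5 over Cy3 (SD, n = 4; limma adjusted p = 0.471). Without litter 2 that value was 0.32 (limma adjusted p = 0.0541), and without litter 3 it was -0.0088. The SD of Pcp2 between litters as deposited was as large in 5.23% of VB features.

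In cortex the Pcp2 arrays with mutant RNA in Cy5 read 0.26, 0.21 and -0.20 in litters 2 to 4, and litter 1 had no value. With mutant RNA in Cy3 they read -0.35, 0.17, -0.64 and -0.49 in litters 1 to 4. These overlapped. Over the 3 litters with both arrays the mean was -0.12 ± 0.29 as deposited (SD, n = 3; 95% interval -0.42 to 0.19; limma adjusted p = 0.909) and 0.21 ± 0.20 read as Cy5 over Cy3 (SD, n = 3; limma adjusted p = 0.556). As in VB, the sign of Pcp2 turned with the reading, so these data give it no direction.

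Slc1a6, the glutamate transporter, had VB arrays of 0.66, 0.15, -0.03 and -0.21 with mutant RNA in Cy5 and of -0.16, -0.31, -0.66 and 0.66 with mutant RNA in Cy3, in litters 1 to 4. Signs were mixed in both assignments and the values overlapped. The litter means of 0.25, -0.08, -0.35 and 0.22 averaged 0.01 ± 0.28 (SD, n = 4; 95% interval -0.21 to 0.23; limma adjusted p = 0.982), and without single litters from -0.07 to 0.13. As Cy5 over Cy3 the mean was 0.13 ± 0.38 (SD, n = 4; limma adjusted p = 0.476), from 0.41, 0.23 and 0.32 in litters 1 to 3 and -0.44 in litter 4. Without litter 4 it was 0.32 and passed (limma adjusted p = 0.0249), where 1609 of 11392 features did. That call rests on leaving out 1 litter.

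In cortex Slc1a6 read -0.13, -0.18, 0.50 and -0.66 with mutant RNA in Cy5. With mutant RNA in Cy3 it read -0.41, 0.29 and 0.37 in litters 1, 2 and 4, and litter 3 had no value. The mean over 3 litters was -0.12 ± 0.17 as deposited (SD, n = 3; 95% interval -0.40 to 0.16; limma adjusted p = 0.888) and -0.20 ± 0.33 read as Cy5 over Cy3 (SD, n = 3; limma adjusted p = 0.602). Neither mean passed.

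Shh, the secreted mitogen, had a positive mean in both tissues. In VB it read 0.38, 0.26 and 0.26 with mutant RNA in Cy5 in litters 1, 3 and 4, with no value in litter 2, and 0.25, 0.09, 0.13 and -0.13 with mutant RNA in Cy3 in litters 1 to 4. The assignments did not overlap, though the lowest of the former was 0.256 and the highest of the latter 0.251, and 6 of the 7 values were positive. In cortex Shh read 0.27, 0.29, 0.56 and 0.10 with mutant RNA in Cy5 and -0.13, -0.01, 0.13 and -0.18 with mutant RNA in Cy3. All 4 of the former were positive and 1 of 4 of the latter was.

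As deposited, the mean of Shh in VB was 0.19 ± 0.13 (SD, n = 3; 1.14-fold; 95% interval 0.0066 to 0.38), positive in all 3 litters (limma adjusted p = 0.479). In cortex it was 0.13 ± 0.16 (SD, n = 4; 95% interval -0.11 to 0.37; limma adjusted p = 0.838), positive in 3 of 4, and 0.06 without litter 3. The Cy5 over Cy3 values were 0.11 ± 0.07 in VB (SD, n = 3; limma adjusted p = 0.379) and 0.17 ± 0.03 in cortex (SD, n = 4; limma adjusted p = 0.520). The litters gave 0.20, 0.15, 0.21 and 0.14 there, and 98.7% of cortex features had an SD as large or larger. Shh was positive in both tissues under both readings and passed in neither tissue under either. Since both readings use the same arrays, that shared sign is no independent support.

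**Figure D2:**
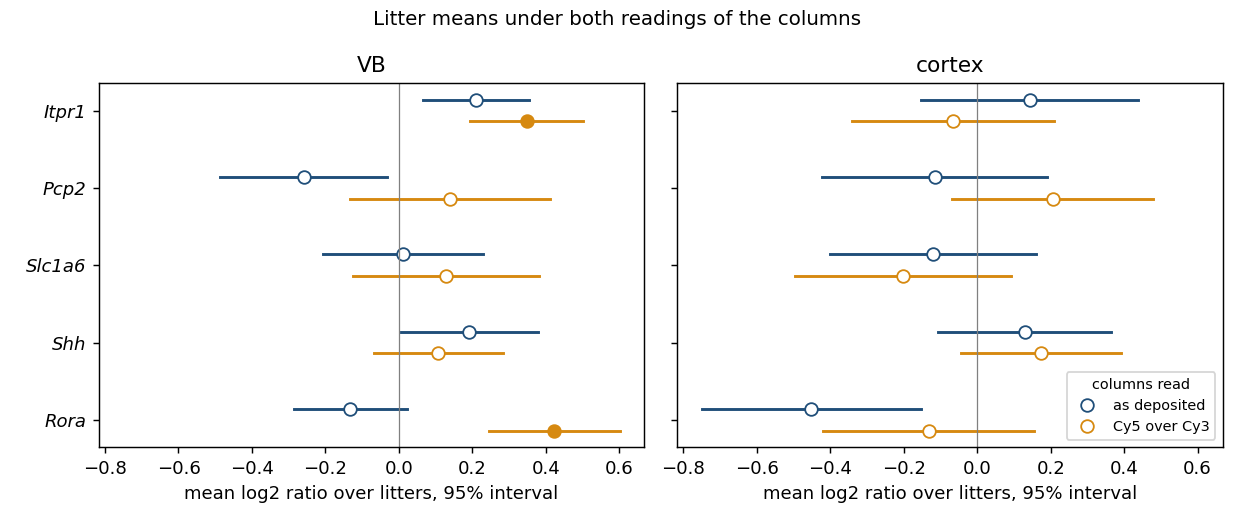
Mean log2 ratio over litters (horizontal axis) of each gene in VB and cortex with its 95% interval from limma, with the columns as deposited (blue) and read as Cy5 over Cy3 (orange). Filled points passed an adjusted p of 0.05, which in VB were Itpr1 (0.35) and Rora (0.42) under the second reading, and the 2 means of Pcp2 lie on opposite sides of 0 in both tissues.

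Rora, the deleted gene, was read by 1 probe on the transcript NM_013646, and where it lies relative to the deletion is unknown, so it checks no label. In VB it read 0.05, 0.18, 0.23 and 0.70 with mutant RNA in Cy5 and -0.45, -0.69, -0.39 and -0.70 with mutant RNA in Cy3. The assignments did not overlap, as for 27.2% of VB features, and Itpr1 had the same signs in the same arrays. Means of opposite sign in the dye assignments were found for 67.8% of VB features. The mean of Rora in VB was -0.13 ± 0.12 as deposited (SD, n = 4; limma adjusted p = 0.555) and 0.42 ± 0.20 read as Cy5 over Cy3 (SD, n = 4; 1.34-fold; limma adjusted p = 0.00470). In cortex it was negative in 6 of 7 arrays, with -0.45 ± 0.26 as deposited (SD, n = 3; limma adjusted p = 0.358) and -0.13 ± 0.29 read as Cy5 over Cy3 (SD, n = 3; limma adjusted p = 0.755). Its relative Rorb, made in layer 4 of the cortex and in sensory thalamus, had -0.03 ± 0.29 in VB as deposited (SD, n = 4; limma adjusted p = 0.948). In VB the ratio of Rora had the sign opposite to Itpr1 as deposited and the same sign under the other reading.

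Differences between the tissues were tested as VB minus cortex over the litter means. As deposited, 0 of the 4 genes passed, where 0.0985% of 12178 features did, and 0 of the 4 had an unadjusted p under 0.05 by limma, against 9.04% of features. The differences were 0.07 for Itpr1 (95% interval -0.28 to 0.42), -0.14 for Pcp2 (-0.54 to 0.25), 0.13 for Slc1a6 (-0.22 to 0.48) and 0.06 for Shh (-0.23 to 0.35). The difference of Itpr1 read as Cy5 over Cy3 was 0.41 (95% interval 0.070 to 0.76; limma adjusted p = 0.181), so its passing in VB is not shown to differ from cortex. The other genes had differences of -0.07 to 0.33 under this reading, and 3.74% of features passed.

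Genes that work with the measured ones were taken from lists chosen with earlier results of these data known, and a list's count is set beside that over all features. Signs, medians and ratios of the lists are as deposited where no reading is named. Of 28 genes of calcium release and group I glutamate receptor signalling, the pathway that opens the Itpr1 channel, 14 were tested in VB and 20 in cortex, and 0 passed as deposited in either tissue by limma. In VB 5 were positive and 9 negative, with a median of -0.02, and 0 had an unadjusted p under 0.05 against 10.2% of all features. The smallest p belonged to Atp2b2, a calcium pump of the cell membrane (-0.15 ± 0.13, SD, n = 4; limma adjusted p = 0.511), and Orai2, a calcium entry channel (-0.15). In cortex 11 were positive and 9 negative (median 0.01), and 4 of the 20 had an unadjusted p under 0.05, 2 of each sign, against 7.90% of all features. Calb1, the calcium buffer calbindin of Purkinje cells, had -0.55 ± 0.39 (SD, n = 4; limma adjusted p = 0.245), near-equal in the dye assignments (-0.56 and -0.53). Plcb3, a phospholipase that makes inositol trisphosphate, had 0.44 ± 0.32 (SD, n = 3; limma adjusted p = 0.430).

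As deposited, calmodulin and its small partners, the group to which Pcp4 belongs, had 1 positive and 6 negative genes of 7 tested in VB (median -0.12). In cortex 7 were positive and 5 negative of 12 (median 0.03). None of them passed as deposited by limma (0 in each tissue), and 2 of 7 in VB and 3 of 12 in cortex had an unadjusted p under 0.05, against 10.2% and 7.90% of all features. Ppp3cb, a catalytic subunit of calcineurin, had -0.23 ± 0.15 in VB (SD, n = 4; limma adjusted p = 0.340), and Camk2a, a calmodulin-dependent kinase, had 0.16 ± 0.04 (0.430). In cortex Nrgn, the calmodulin-binding neurogranin, had 0.41 ± 0.24 (SD, n = 4; limma adjusted p = 0.303), and Calm2, a calmodulin gene, 0.34 ± 0.12 (0.359), with opposite signs in the dye assignments (-0.21 and 0.90). Read as Cy5 over Cy3, this list had 7 positive and 0 negative genes in VB (median 0.08). In cortex it had 3 positive and 9 negative under that reading (median -0.11), so its signs turned with the reading.

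Gi and Go proteins and their GoLoco regulators, the partners of Pcp2, had 4 positive and 8 negative genes of 12 in VB and 5 of each of 10 in cortex, with 0 passing as deposited in either tissue by limma. An unadjusted p under 0.05 was found for 3 of the 12 in VB and 1 of the 10 in cortex, against 10.2% and 7.90% of all features. Gpsm3, a GoLoco protein, had -0.21 ± 0.12 (SD, n = 4; limma adjusted p = 0.339), and Gnaz, a relative of the Gi proteins, had -0.23 ± 0.02 (SD, n = 3; 0.350), from 0.19 and -0.73 in the dye assignments. In cortex the GoLoco genes Gpsm2 and Gpsm1 had -0.30 and 0.24 (limma adjusted p = 0.536 and 0.640).

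Among transporters of glutamate and neutral amino acids and glutamine synthesis, the group of Slc1a6, 6 were positive and 2 negative of 8 in VB (median 0.02), and 3 positive and 6 negative of 9 in cortex (median -0.14), with 0 passing as deposited in either tissue by limma. An unadjusted p under 0.05 was found for 2 of the 8 and 1 of the 9, against 10.2% and 7.90% of all features. Slc17a7, a transporter that loads glutamate into synaptic vesicles, had 0.40 ± 0.33 in VB (SD, n = 3; limma adjusted p = 0.260). Slc1a3, a glutamate transporter of astrocytes, had 0.22 ± 0.14 (SD, n = 4; 0.350). In cortex Slc1a2, the other main astrocyte transporter, had -0.33 ± 0.42 (SD, n = 4; limma adjusted p = 0.586), and Glul, which makes glutamine in astrocytes, -0.23 ± 0.22 (0.677).

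Hedgehog signalling, which Shh starts, had 8 positive and 9 negative genes of 17 in VB (median -0.00075) and 6 positive and 9 negative of 15 in cortex (median -0.02), with 0 passing as deposited in either tissue by limma. In each tissue 1 gene had an unadjusted p under 0.05, against 10.2% of all features in VB and 7.90% in cortex. In VB that gene was Dhh, another hedgehog ligand, at -0.34 ± 0.44 (SD, n = 4; limma adjusted p = 0.436). The next smallest p there was that of Hhip, which binds hedgehog ligands, at 0.12 (limma adjusted p = 0.678). In cortex that gene was Boc, a co-receptor, with -0.33 ± 0.25 (SD, n = 3; limma adjusted p = 0.567). Gli3, a transcription factor of the pathway, came next with 0.24 ± 0.21 (SD, n = 4; limma adjusted p = 0.640).

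Of 20 other genes of Purkinje cells, 8 were tested in VB (6 positive, 2 negative; median 0.09) and 12 in cortex (5 positive, 7 negative; median -0.04), and 0 passed as deposited in either tissue by limma. An unadjusted p under 0.05 was found for 1 of the 8 and 1 of the 12, against 10.2% and 7.90% of all features. The gene in cortex was Calb1 (-0.55; limma adjusted p = 0.245), which is counted in the calcium release list as well. Foxp2, a transcription factor also of deep cortical layers and thalamus, had 0.26 ± 0.25 in VB (SD, n = 4; limma adjusted p = 0.383). Rgs8, a brake on G protein signalling, had 0.20 ± 0.32 in VB (SD, n = 4; 0.555), from -0.33 and 0.72 in the dye assignments, and 0.16 in cortex. Read as Cy5 over Cy3, this list had 3 positive and 5 negative genes in VB (median -0.13) and 6 of each sign in cortex.

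**Figure D3:**
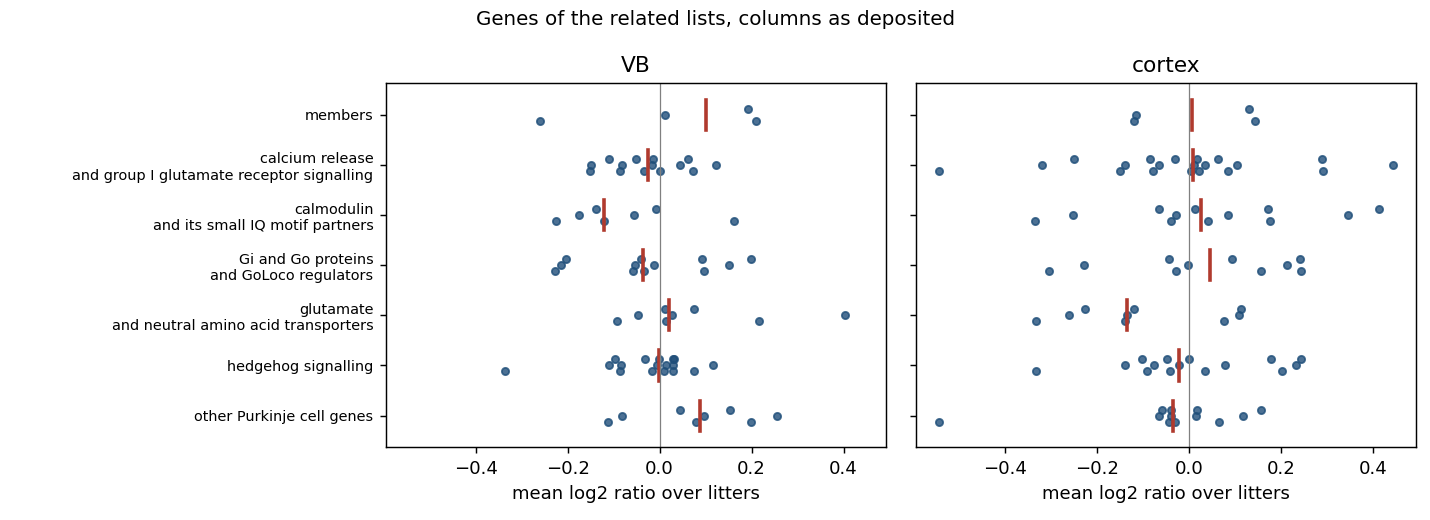
Mean log2 ratio over litters (horizontal axis, columns as deposited) of each tested gene of the related lists in VB and cortex, with the list median as a red line and the 4 measured genes in the top line (members). The medians lie between -0.14 and 0.10, and none of the genes shown passed an adjusted p of 0.05 by limma (0 in each tissue).

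More genes of these lists passed when columns were read as Cy5 over Cy3, as did more features overall (17.3% in VB and 1.53% in cortex). In VB these were Plcb3 (0.40), the calmodulin-dependent kinase gene Camk2b (0.30), Calm2 (0.33 over 3 litters), the G protein genes Gnao1 (0.50) and Gnaz (0.42) and the cell cycle gene Ccnd1 (0.39), a hedgehog response gene, with positive ratios. Homer1 and Homer3, scaffolds that tie group I glutamate receptors to the Itpr1 channel, passed with -0.76 and -0.29, as did Gpsm2 (-0.40), Rgs8 (-0.53) and Lhx1, a transcription factor of Purkinje cells (-0.42). Of the 14 calcium release genes tested in VB, 6 were positive and 8 negative under this reading (median -0.06). The shares that passed in VB were 3 of 14 for calcium release, 1 of 17 for hedgehog signalling, 2 of 7 for calmodulin, 4 of 12 for G proteins, 3 of 8 for Purkinje cell genes and 0 of 8 for transporters. These lists overlap. Homer3 counts for both calcium release and Purkinje cell genes, and Rgs8 for both G proteins and Purkinje cell genes. In cortex Homer1 (-0.68), Stim1, the calcium sensor of the endoplasmic reticulum (-0.49), and Gnao1 (-0.80) passed.

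The genes whose ratios followed each measured gene most closely over its litter means as deposited, by Pearson correlation over VB and cortex together, were Tacc3, Polr1d and Olfr894 for Itpr1 (r of 0.970, 0.968 and 0.956 over 8 litter means). They were Polr3gl, Ppp2r3a and Srsf11 for Pcp2 (0.968 to 0.937 over 7), Pnlip, Nup43 and Erf for Slc1a6 (0.937 to 0.922 over 7) and Foxm1, Zfp365 and Olfr112 for Shh (0.978 to 0.960 over 7). They were the highest among 3656 or 3657 genes and share their arrays with the gene they follow. Read as Cy5 over Cy3, other genes took these places, with Vmn1r83, Khnyn and Ncbp2 nearest to Itpr1 (r of 0.978, 0.929 and 0.916).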

How the data were processed

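RNA of VB and somatosensory cortex was compared on 16 arrays. The deposited values are log2 ratios by assumption. How the authors made them (base, numerator, scanner, background correction, normalization, spot filter) is not stated in the labels. Array medians were -0.003 to 0.004, and no channel intensities were used. Platform symbols were updated through RefSeq accession (15682 probes), symbol (2966) or synonym (1694), 27 were kept, and 3738 of 24107 probes had none. Swapped arrays were averaged per litter where both had a value, and probes of a gene were averaged. Litter means were tested against 0 with limma 3.58.1 (two-sided; R 4.3.3), by tissue, with 16066 features in VB and 16521 in cortex. Labels share litter numbers between tissues. Deviations of VB and cortex of the same litter correlated at -0.0016, -0.0154, -0.0112 and 0.0291 over 4248 features, and a fit with litter as a block was run beside the tissue comparison. Named genes were the 5 listed genes, Rora, per list the genes that passed and the 2 with the smallest p in each tissue (under the Cy5 over Cy3 reading those that passed), and per measured gene the 3 most alike. Members and lists were chosen with earlier results of these data known. The fit was tested on simulated data, with no outcome given here, so this lends no support to the values above. Promoter sequences are from RefSeq (GRCm38.p6).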

Additional observations from a re-analysis of the deposited data

Results flagged for a closer look

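Of 23 groups of 4 values (litter means under each reading and arrays of each dye assignment), 2 had a value far from the others, and chance gives about 1 in 20. The Pcp2 array of litter 2 in VB with mutant RNA in Cy5 read -1.04, against 0.11 to 0.30 in the other litters. The litter mean of Itpr1 in cortex read as Cy5 over Cy3 was 0.51 in litter 2, against -0.30 to -0.20 in the others.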

How the results depend on the processing

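As deposited and with both dye assignments, 0 of the 4 genes passed by limma in VB or cortex under the alternatives run there, nor in VB minus cortex with quantile normalization, centred arrays or the litter block. With a litter left out 0 passed either, but a gene needs 3 litters, so those fits tested 3 to 4 of the genes in VB, 2 to 3 in cortex and 1 to 2 in VB minus cortex. In VB 1 passed (Itpr1) with the columns read as Cy5 over Cy3 (0.35, also with robust eBayes, and 0.44 with quantile normalization). Itpr1 also passed on arrays with mutant RNA in Cy5 only (0.56). Under the Cy5 over Cy3 reading 1 to 2 passed in VB with a litter left out, where 1056 of 9872 to 1640 of 10857 features did. Read as Cy5 over Cy3, signs turned for Pcp2 in VB (0.139, 0.177 with quantile normalization, and 0.0722, 0.321 and 0.170 without litter 1, 2 or 4), for Pcp2 in cortex (0.205, 0.197 with quantile normalization), for Itpr1 in cortex (-0.0648, also with robust eBayes, -0.0205 with quantile normalization, -0.257 without litter 2 and -0.0197 without litter 4) and for Shh in VB minus cortex (-0.0675, and -0.0755 with the replicate block). On arrays with mutant RNA in Cy3 only, signs turned for Itpr1 (-0.138) and Slc1a6 (-0.116) in VB and for Shh (-0.0458) and Slc1a6 (0.0823) in cortex, and on arrays with mutant RNA in Cy5 only for Pcp2 in cortex (0.089). Slc1a6 in cortex was 0.0359 with unpaired arrays counted. With each litter left out, Slc1a6 in VB ran from -0.0683 (without litter 1; -0.0593 without litter 4) to 0.132, and Itpr1 in VB minus cortex from -0.0937 (without litter 1) to 0.164.

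Of all features, 50 passed in VB, against 19 in 1 fit of both tissues, 19 with quantile normalization, 7 with unpaired arrays counted and 0 with arrays kept apart. In cortex 10 passed, against 31 in 1 fit of both tissues, 18 with at least 2 litters, 16 with each probe on its own, 5 with arrays kept apart and 2 with unpaired arrays counted. Arrays with mutant RNA in Cy5 only gave 1167 in VB and 95 in cortex, and those in Cy3 only 1678 and 152. Read as Cy5 over Cy3, the counts were 2784 in VB (2652 with quantile normalization, 2872 with robust eBayes) and 253 in cortex (233 and 297). With a litter left out they ran from 11 to 95 in VB and 0 to 98 in cortex as deposited, 1056, 1640, 1280 and 1609 in VB and 133, 124, 172 and 205 in cortex without litters 1 to 4 under the other reading, and from 0 to 1 in VB minus cortex against 12 with all litters. A feature needs 3 litters, so the fits with a litter left out tested fewer features. These were 9872 to 11392 in VB, 10994 to 12070 in cortex and 5209 to 6221 in VB minus cortex. With all litters, VB minus cortex gave 455 read as Cy5 over Cy3. With the litter number as a replicate block it gave 16 as deposited and 405 under that reading, and the block changed no call of the 4 genes (Itpr1 0.07, Pcp2 -0.15, Slc1a6 0.25, Shh 0.07 as deposited). Under the Cy5 over Cy3 reading, the replicate block, the left-out litters, robust eBayes and quantile normalization were chosen after seeing the data. The cause of these differences was not tested. The unknown numerator limits every direction, and 3 to 4 litters and the lack of intensities limit the precision.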
